A study of Mus musculus with 2 samples.

Results

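The 10 genes described here encode subunits of AP-1, a transcription factor built from pairs of basic leucine zipper proteins, and they were chosen by name from the 55536 named genes of the deposited tables. They fell into 3 classes by subunit type. Fos, Fosb, Fosl1 and Fosl2 formed the Fos-type class, Jun, Junb and Jund the Jun-type class, and Atf3, Batf and Maff the Atf/Batf/Maf-type class. The contrast was between the classes within each library, and class membership was set by subunit type, not by measured values.

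Nuclear RNA, depleted of ribosomal RNA, was sequenced from primary bone marrow-derived macrophages of C57BL/6J mice. The single group had been given 100 ng/ml Lipid A, the TLR4-binding part of bacterial lipopolysaccharide, for 12 hours, had been held after washout for 12 hours, and had then been given 100 ng/ml Lipid A again for 20 minutes. It held 2 libraries, numbered 1 and 2 in the labels as biological replicates under a shared donor label, made from 1 µg of RNA in replicate 1 and 500 ng in replicate 2. The sample description names the fraction nucleoplasmic and the characteristics name it nucleus. The labels record neither sex nor age, and there was no untreated, cytoplasmic or other time point here, so no response to Lipid A could be measured. Because nothing states that the cultures came from separate animals, the spread between the libraries may be technical, and an effect of RNA input cannot be told apart from other differences between the cultures.

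AP-1 dimers bind the element TGAGTCA and its longer relative TGACGTCA. Fos proteins pair with Jun proteins but hardly with each other, whereas Jun proteins can also pair among themselves, and Atf, Batf and Maf proteins join them in further dimers with other DNA preferences. In macrophages, TLR4 signals through MAP kinases, which raise transcription of Fos, Jun and their relatives within minutes as immediate early genes and also phosphorylate the proteins.

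Depth was 21954179 expected counts, or estimated reads in genes, for replicate 1 and 17739520 for replicate 2. A gene at 0 counts could still have reached 3 counts, which is 0.137 CPM (counts scaled to a common library total) in replicate 1 and 0.169 in replicate 2. Levels are given in TPM, the authors' length-scaled transcript abundance, which divides by length and so allows genes to be compared. Macrophage markers were present, with all 9 at 1 TPM or more and a summed level of 2461 TPM in replicate 1 and 2864 in replicate 2, led by Lyz2, Adgre1 and Csf1r. The other marker lists were low. The 8 neutrophil genes summed to 1.99 TPM in replicate 1 and 3.27 in replicate 2, led by S100a9, S100a8 and Ngp, with Ly6g and Elane at 0. The 7 dendritic cell genes, led by Batf3, Ccr7 and Clec9a, summed to 7.76 TPM in replicate 1 and 5.86 in replicate 2. The 8 lymphoid genes summed to 0.560 TPM in replicate 1 and 0.950 in replicate 2 with 3 at 0, the 7 stromal genes to 0.170 TPM and 1.02 TPM in the same libraries with 4 at 0, and the 7 erythroid and mast cell genes to 2.38 TPM in replicate 1 and 2.05 in replicate 2 with 4 at 0. Mitochondrial mRNA took 3.45% of counts in replicate 1 and 6.32% in replicate 2.

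The regulatory sequence before 4 of the genes is shown first, 2 of them Fos-type and 2 Jun-type, because in the gene table the levels within each of these classes differed between the libraries in 1 direction. Each sequence holds the 250 bases before the RefSeq transcription start on the gene's own strand, 5′ to 3′, from RefSeq on GRCm38.p6. Capitals mark TGACG, the core of the cAMP response element bound by the CREB and ATF families, the TATA box TATAAA, or the AP-1 variant TGACATCA that Jun dimers bind. The windows are chr12:85473640-85473889 on the plus strand for Fos, chr7:19310046-19310295 on the minus strand for Fosb, chr4:95052223-95052472 on the minus strand for Jun and chr8:84978749-84978998 on the minus strand for Junb.
Fos: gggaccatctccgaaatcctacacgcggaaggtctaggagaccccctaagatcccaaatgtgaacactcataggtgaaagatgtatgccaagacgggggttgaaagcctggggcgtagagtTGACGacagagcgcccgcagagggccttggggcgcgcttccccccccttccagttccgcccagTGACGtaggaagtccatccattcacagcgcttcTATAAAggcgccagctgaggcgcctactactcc
Fosb: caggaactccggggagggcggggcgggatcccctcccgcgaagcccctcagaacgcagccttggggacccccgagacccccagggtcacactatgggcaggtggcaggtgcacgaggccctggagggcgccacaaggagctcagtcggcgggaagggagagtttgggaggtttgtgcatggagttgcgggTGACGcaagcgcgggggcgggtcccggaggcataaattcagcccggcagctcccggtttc
Jun: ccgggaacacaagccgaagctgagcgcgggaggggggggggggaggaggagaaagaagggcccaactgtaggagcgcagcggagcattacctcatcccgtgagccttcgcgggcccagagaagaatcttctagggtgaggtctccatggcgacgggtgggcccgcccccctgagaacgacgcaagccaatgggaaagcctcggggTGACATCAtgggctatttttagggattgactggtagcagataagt
Junb: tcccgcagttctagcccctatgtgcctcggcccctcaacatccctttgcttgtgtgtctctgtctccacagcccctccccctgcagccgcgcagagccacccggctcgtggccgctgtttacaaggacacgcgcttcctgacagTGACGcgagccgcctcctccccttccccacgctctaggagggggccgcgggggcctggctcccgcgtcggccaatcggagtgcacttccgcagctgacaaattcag

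Counting from -1 at the base before the start, the Fos window held TGACG at -129 and -66 and TATAAA at -33. Fosb held TGACG at -60, Junb held it at -106, and Jun held TGACATCA at -45. Both strands were searched, and overlapping matches were counted. Of 32851 promoter windows of the same length, 17.8% held TGACG, which is also contained in TGACGTCA, 12.4% held TATAAA and 2.93% held TGACATCA. TGAGTCA was in 4.46% of all windows and TGACGTCA in 1.55%. Maff has 3 windows in the table, of which 1 held TGACGTCA at -29 and another TGACATCA at -45. Of the 9 members with a window, none held TGAGTCA or a CArG box in it. The CArG box, the element bound by serum response factor, was in 1.47% of all windows. These matches describe the letters and are not measured binding sites. Absence holds only within the 250 bases, and sequence further upstream was not searched. The RefSeq start minus the GENCODE gene start was -1210 bases for Jund, 671 for Fosl2 and 34706 for Atf3. For these genes the 250 bases before the GENCODE start were thus not searched.

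Junb was the most abundant of the 10 RNAs in the sequenced nuclear fraction in both libraries, and Fosl1 was not detected. By the mean of the libraries Jun, Fos and Atf3 followed, but Fos stood below Jund in replicate 1 and was second in replicate 2. By that mean Junb exceeded 97.5% of the protein-coding genes with a mean of 1 TPM or more, Jun 91.6%, Fos 91.5% and Atf3 91.0%. Together the 10 genes had 351 TPM in replicate 1, against 298 TPM in replicate 2, which was 0.0868% and 0.0597% of all expected counts. By mean TPM the order was Junb, Jun, Fos, Atf3, Jund, Batf, Fosl2, Maff, Fosb and Fosl1. The ranges of Jun, Fos and Atf3 overlapped from one gene to the next, as did those of Jund and Batf and those of Fosl2, Maff and Fosb, so these neighbours were not separated by the spread between libraries. The range of Fos also overlapped those of Jund and Batf. In bulk RNA, fewer cells with a transcript and less of it per cell cannot be told apart.

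**Figure D1:**
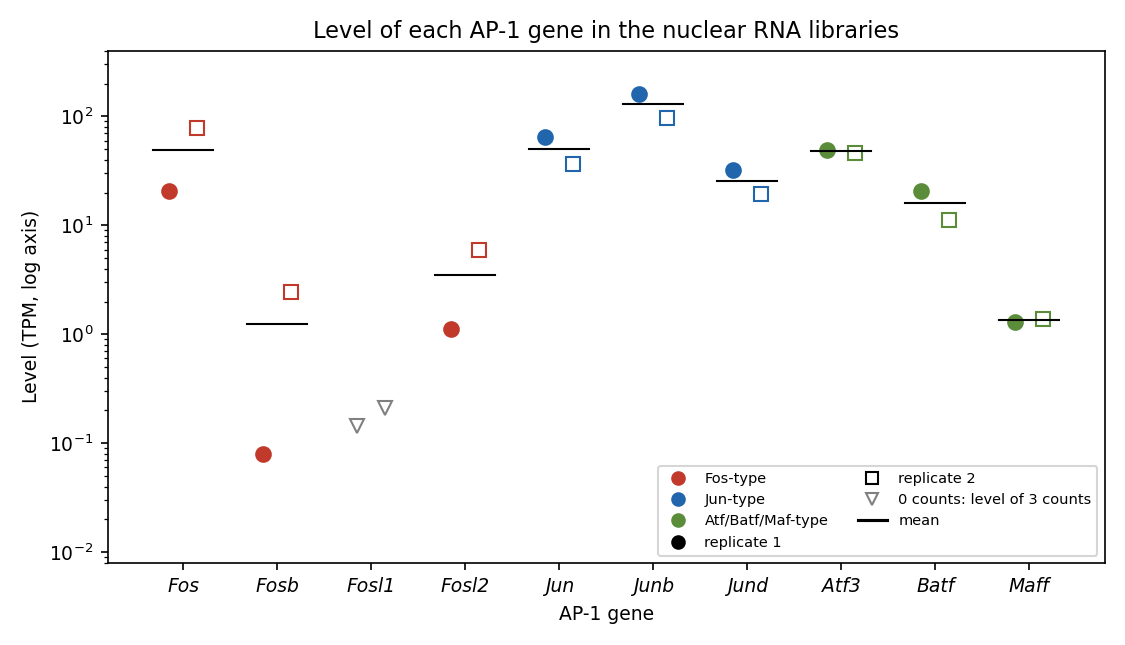
Level of each AP-1 gene in TPM on a log axis, with replicate 1 as filled circles, replicate 2 as open squares and the mean as a bar, coloured by class. The 3 Fos-type genes with counts were lower in replicate 1, all 3 Jun-type genes were higher in replicate 1 in this table but not in the uncentred TPM of a second transcript table that the authors deposited, and Fosl1 is drawn at the level that 3 counts would give.

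Jun-type RNA was the largest class in both libraries, and the balance between Fos-type and Jun-type RNA differed strongly between them. Jun-type genes summed to 258 TPM in replicate 1 and 153 in replicate 2, or 73.3% and 51.2% of the AP-1 total (62.3 ± 15.6%, SD, n = 2). Fos-type genes summed to 22.0 TPM in replicate 1 and 86.6 in replicate 2, or 6.27% in replicate 1 and 29.1% in replicate 2 (17.7 ± 16.1%, SD, n = 2). Atf/Batf/Maf-type genes held a near constant share, with 71.7 TPM in replicate 1 and 58.6 in replicate 2, or 20.4% in replicate 1 and 19.7% in replicate 2 (20.0 ± 0.511%, SD, n = 2). Without division by length the shares of expected counts were 6.34% in replicate 1 and 28.3% in replicate 2 for the Fos type, 77.7% in replicate 1 and 56.1% in replicate 2 for the Jun type and 16.0% in replicate 1 and 15.6% in replicate 2 for the Atf/Batf/Maf type.

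Summed Fos-type TPM was 11.7-fold below summed Jun-type TPM in replicate 1 and 1.76-fold below it in replicate 2, which are log2 ratios of -3.55 and -0.82 (-2.18 ± 1.93, SD, n = 2). Summed Atf/Batf/Maf-type TPM was 3.59-fold and 2.60-fold below the Jun-type sum, with log2 ratios of -1.85 and -1.38 (-1.61 ± 0.33, SD, n = 2). Both classes were thus below the Jun type in each library. The order of the remaining pair turned over, since Fos-type RNA was 3.26-fold below Atf/Batf/Maf-type RNA in replicate 1 and 1.48-fold above it in replicate 2. A single group of 2 libraries allows no test of these ratios.

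**Figure D2:**
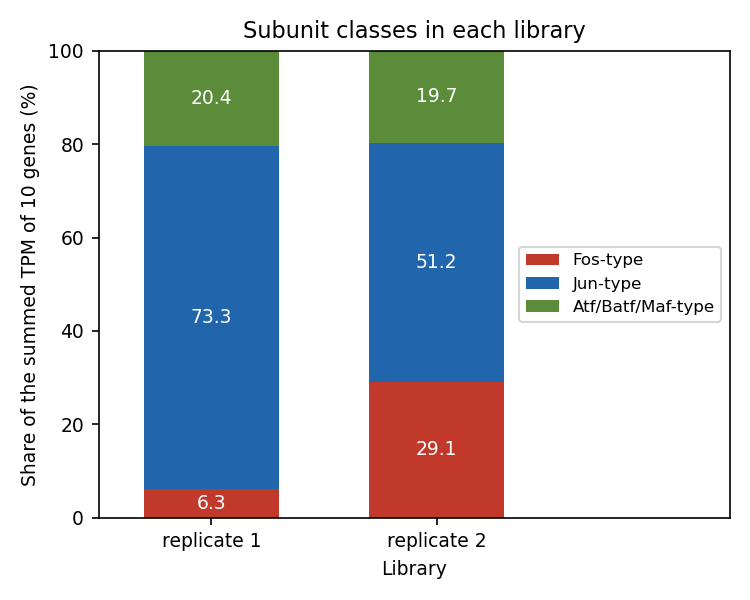
Share of each AP-1 class in the summed TPM of the 10 genes, in percent, as stacked bars for replicate 1 and replicate 2. The Atf/Batf/Maf-type share is 20.4% in replicate 1 and 19.7% in replicate 2, while the Fos-type share is 6.27% in replicate 1 and 29.1% in replicate 2.

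The 4 Fos-type genes encode the subunits that need a partner of another class to bind DNA. Fos (ENSMUSG00000021250.13, chr12:85473890-85477273, plus strand, mm10), the founding member and a textbook immediate early gene, had 20.82 TPM in replicate 1, against 78.27 TPM in replicate 2 (49.5 ± 40.6 TPM, SD, n = 2). These levels rested on 1033 expected counts in replicate 1, which is 47.1 CPM (95% exact Poisson interval 44.2 to 50.0), and 2360 in replicate 2, which is 133 CPM (128 to 139). Such intervals cover counting error only, and the gap between the libraries lay far outside them. Fos made up 94.6% of Fos-type TPM in replicate 1 and 90.4% in replicate 2.

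Fosb (chr7:19302696-19310051, minus strand), a close paralog of Fos, had 0.08 TPM in replicate 1, against 2.43 TPM in replicate 2 (1.26 ± 1.66 TPM, SD, n = 2). It had 8 counts in replicate 1, which is 0.364 CPM (0.157 to 0.718), and 168 in replicate 2, which is 9.47 CPM (8.09 to 11.0). In replicate 1 the gene was close to the limit of detection. Fosl2 (chr5:32135801-32157842, plus strand), which encodes Fra-2, a subunit without a strong activation domain, had 1.12 TPM in replicate 1, against 5.89 TPM in replicate 2 (3.50 ± 3.37 TPM, SD, n = 2), from 167 counts in replicate 1 and 465 in replicate 2. Relative to Fos, Fosl2 was 18.6-fold lower in replicate 1 and 13.3-fold lower in replicate 2, and Fosb was 260-fold lower in replicate 1, on few counts, and 32.2-fold lower in replicate 2. Fosl1 (chr19:5447547-5455946, plus strand), which encodes Fra-1, had 0 counts in both libraries, which allows up to 0.144 TPM in replicate 1 and 0.213 in replicate 2. It overlaps 2767 bases of Ccdc85b on the opposite strand, which had 0.28 TPM in replicate 1, against 0.30 TPM in replicate 2.

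The 3 Jun-type genes encode subunits that can pair with Fos proteins or with each other, and all lack introns in their main transcript. Junb (chr8:84974484-84978718, minus strand), whose protein can restrain Jun at some targets, had 161.8 TPM in replicate 1, against 96.95 TPM in replicate 2 (129 ± 45.9 TPM, SD, n = 2), from 7711 counts in replicate 1 and 3158 in replicate 2. Jun (ENSMUSG00000052684.4, chr4:95049034-95052222, minus strand), the substrate that gave the JNK kinases their name, had 63.99 TPM in replicate 1, against 36.36 TPM in replicate 2 (50.2 ± 19.5 TPM, SD, n = 2). It had 5700 counts in replicate 1, which is 260 CPM (253 to 266), and 2212 in replicate 2, which is 125 CPM (120 to 130). Jund (chr8:70698949-70700616, plus strand), the member that many resting cells express, had 31.89 TPM in replicate 1, against 19.33 TPM in replicate 2 (25.6 ± 8.88 TPM, SD, n = 2), from 1389 counts in replicate 1 and 574 in replicate 2.

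The proportions within the Jun type were close in the libraries although each gene was higher in replicate 1 in the gene table, a direction that the second transcript table gave only after centring. Junb was 2.53-fold above Jun in replicate 1 and 2.67-fold above it in replicate 2, and it was 5.07-fold above Jund in replicate 1 and 5.02-fold above it in replicate 2. Jun was 2.01-fold above Jund in replicate 1 and 1.88-fold above it in replicate 2. The pair of Fos and Jun, by contrast, changed order, with Fos 3.07-fold below Jun in replicate 1 and 2.15-fold above it in replicate 2. No source used here states a strand setting for the counting, so overlapping genes on opposite strands may share reads. Junb overlaps Prdx2 by 351 bases, a gene with 23.5 TPM in replicate 1 and 35.98 in replicate 2, and Jun overlaps the antisense RNA Junos by 689 bases, with 2.31 TPM in replicate 1 and 4.20 in replicate 2. Jund overlaps the antisense gene Gm11175 by 919 bases, which had 0 counts in both libraries.

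In the Atf/Batf/Maf type, Atf3 was abundant and its TPM was close in the libraries in the gene table, but not its CPM. Atf3 CPM was 119 in replicate 1 and 83.1 in replicate 2. The second transcript table gave it 12.7 TPM in replicate 1 and 30.3 TPM in replicate 2. Atf3 (chr1:191170296-191218039, minus strand), a stress-induced subunit that in mouse macrophages is known to restrain cytokine genes after TLR signals, had 49.57 TPM in replicate 1, against 45.97 TPM in replicate 2 (47.8 ± 2.55 TPM, SD, n = 2), from 2619 counts in replicate 1 and 1475 in replicate 2. Batf (chr12:85686669-85709087, plus strand), which lacks an activation domain and pairs with Jun proteins, had 20.82 TPM in replicate 1, against 11.26 TPM in replicate 2 (16.0 ± 6.76 TPM, SD, n = 2), from 370 counts in replicate 1 and 139 in replicate 2. Maff (chr15:79346621-79359076, plus strand), a small Maf protein without an activation domain, had 1.31 TPM in replicate 1, against 1.39 TPM in replicate 2 (1.35 ± 0.0566 TPM, SD, n = 2), from 52 counts in replicate 1 and 38 in replicate 2. Atf3 was 2.38-fold above Batf in replicate 1 and 4.08-fold above it in replicate 2. Batf starts 209 kb after the end of Fos on the same strand of chromosome 12, with the AP-1 repressor gene Jdp2 between them at 5.07 TPM in replicate 1 and 4.06 in replicate 2. In the gene table these neighbours did not share a direction, since Fos was lower in replicate 1 and Batf higher, whereas in the uncentred second transcript table both were lower.

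The difference of each gene between the libraries was set against that of all genes. With a pseudocount of 1 TPM, it was the log2 ratio of replicate 1 to replicate 2 less the median of -0.29 over the 12952 genes with a mean of 1 TPM or more, a scale that understates differences of low genes. Of the 10 members, 9 passed that filter. Past 2-fold on this scale, 3 members were higher in replicate 1, where 4.51% of all genes were, and 3 were lower, where 2.78% were, and past it either way were 6 members and 7.29% of all genes. The 3 lower members were all Fos-type, with Fos at -1.57, Fosl2 at -1.41 and Fosb at -1.38. Only 0.672% of genes had a lower value than Fos, 0.919% a lower one than Fosl2 and 1.00% a lower one than Fosb. They were the Fos-type genes that passed the filter, and Fosb passed it through replicate 2 alone, so its place among them adds nothing to the count. With mitochondrial and short genes left out of TPM, Fos was at -1.54 and Jun at 1.16. The 3 higher members were Batf at 1.12, Jun at 1.09 and Junb at 1.02, with Jund just under the line at 0.98. Atf3 was at 0.40 and Maff at 0.24. The central 95% of all genes lay between -1.04 and 1.30 (SD 0.71), so the Jun-type genes and Batf were inside that span and the Fos-type genes outside it.

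**Figure D3:**
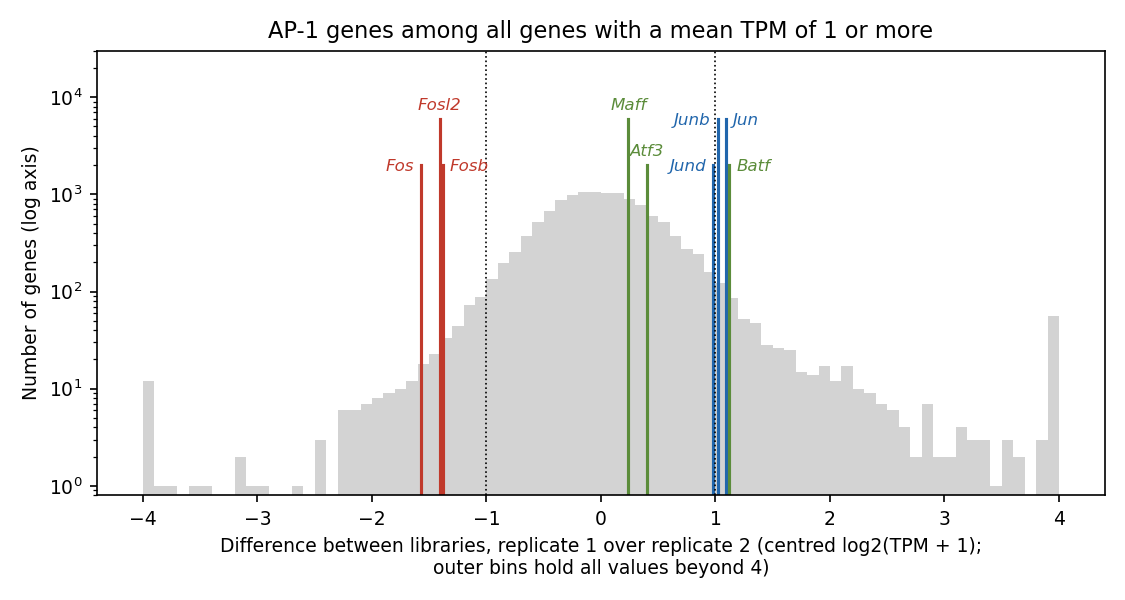
Number of genes, on a log axis, by their difference between libraries as centred log2 of replicate 1 over replicate 2, with the outer bins holding all values beyond the axis. Coloured lines mark the 9 AP-1 genes that passed the filter and dotted lines 2-fold, and Fos, Fosl2 and Fosb sit left of the lower line while Jun, Junb and Batf sit right of the upper one, which they did not pass in the second transcript table.

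On CPM, neither centred nor divided by length, the counting error was small against most of these differences. The log2 difference of replicate 1 over replicate 2 was -1.50 for Fos (95% interval -1.61 to -1.39), -1.78 for Fosl2 (-2.05 to -1.53) and -4.70 for Fosb (-5.94 to -3.69). It was 1.06 for Jun (0.99 to 1.13), 0.98 for Junb (0.92 to 1.04), 0.97 for Jund (0.83 to 1.11) and 1.10 for Batf (0.82 to 1.40). Atf3 had 0.52 (0.43 to 0.61), and Maff, with few counts, had 0.14 (-0.49 to 0.79). Counting error alone did not reach 0 for these genes other than Maff. These intervals compare the reads of 2 libraries and hold no biological spread.

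Fos and Fosl2 were lower in replicate 1 under every setting, whereas the direction of the Jun-type genes, Atf3 and Batf turned in 1 setting. Fosb was lower in each setting in which it passed the filter. It reached a mean of 1 TPM through replicate 2 alone, so its direction under that filter adds nothing. Fosl2 likewise passed through replicate 2 alone in the second transcript table and with coding transcripts alone. In the second transcript table, made from the reads directly, the median gene was at -1.28 before centring and 74.3% of 15614 genes were past 2-fold lower in replicate 1. Uncentred, that table gave -0.45 for Jun, -0.56 for Junb, -0.81 for Jund, -0.44 for Batf and -1.19 for Atf3, beside -2.83 for Fos and -1.81 for Fosl2. In that table the Jun-type genes were thus higher in replicate 1 relative to the median gene and not in TPM itself. Fos was past 2-fold in 13 of 13 settings (-2.83 to -1.33), Fosl2 in 10 of 13 (-1.95 to -0.53) and Fosb in 8 of the 9 in which it passed the filter (-3.47 to -0.37). Past 2-fold higher were Jun in 7 of 13 (-0.45 to 1.20), Batf in 7 (-0.44 to 1.22), Junb in 6 (-0.56 to 1.12) and Jund in 5 (-0.81 to 1.09). Atf3 was never past 2-fold higher (-1.19 to 0.66), nor was Maff (-0.05 to 0.26), whose sign turned without centring. In the gene table without centring no member was past 2-fold higher in replicate 1, where 2.55% of all genes were, and the same 3 Fos-type genes were past it lower, where 7.10% were. Fosb was among them with the same limit.

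**Figure D4:**
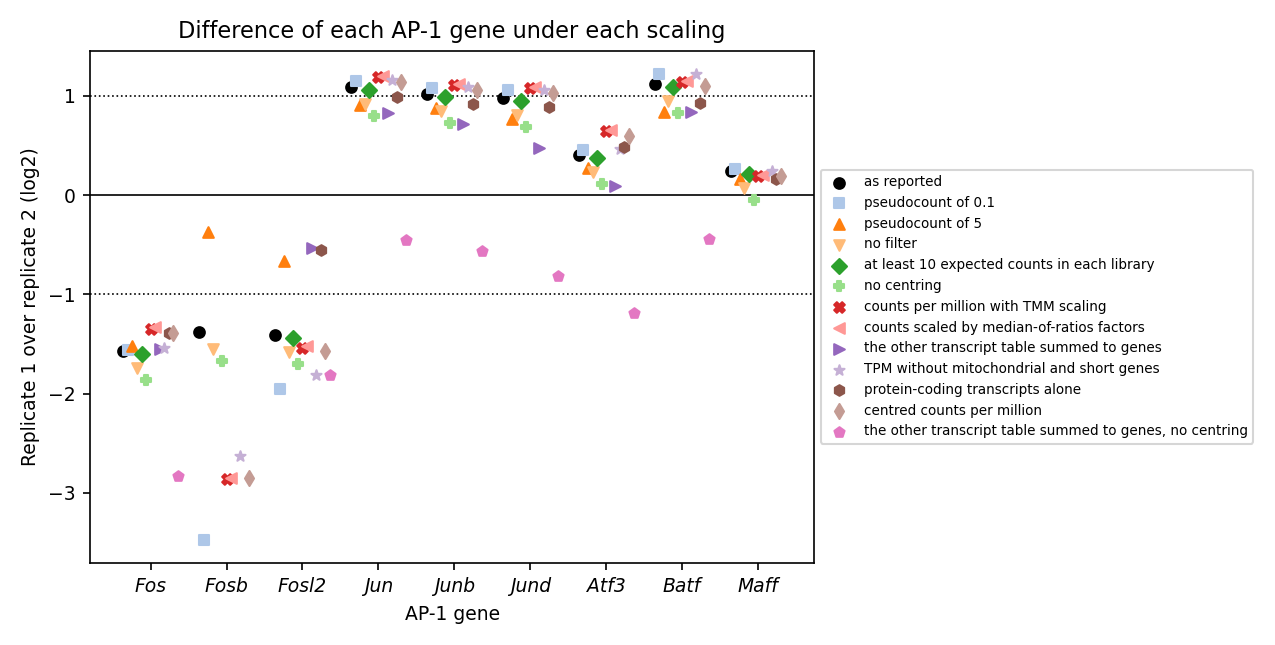
Difference of each AP-1 gene, as log2 of replicate 1 over replicate 2, under each scaling or filter, with 1 symbol per setting and dotted lines at 2-fold. Fos stays below the lower line in all settings, while the symbols of Jun, Junb, Jund and Batf lie on both sides of the upper one, and below 0 for the uncentred second transcript table.

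On the centred scale, genes without introns tended to be higher in replicate 1, and Jun and Jund have 1 exon in every annotated transcript. Of the 226 protein-coding genes of that kind with a mean of 1 TPM or more, 19.5% were past 2-fold higher in replicate 1 and 2.65% lower, with a median of 0.32 on the centred log2 scale. Among 9824 such genes with more exons, 2.69% were higher and 1.08% lower, with a median of 0.03. Jun and Jund thus lay, on that scale, in the direction more common in their structural class, beyond its median. Centring subtracted a median of -0.29 from every gene alike. It makes up most of the 0.32 but leaves the gap between 0.32 and 0.03 unchanged. The summed TPM of all 1344 protein-coding genes without introns was lower in replicate 1, at 34627 against 91157 in replicate 2. That sum includes the mitochondrial mRNAs, at 3.45% of counts in replicate 1 and 6.32% in replicate 2. A single gene of the set reached 35616 TPM, so the sum does not describe the typical gene without introns. The part of gene structure in the difference of Jun and Jund was not tested.

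The transcript tables split each gene's TPM over its annotated transcripts, which share reads, so the split is an estimate. Transcripts of a type other than protein-coding, which include spliced forms with kept intron sequence, made up more of the 3 detected Fos-type genes in replicate 2. For Fos they held 18.1% of TPM in replicate 1 and 31.8% in replicate 2, for Fosb 25.0% in replicate 1 and 56.4% in replicate 2, and for Fosl2 43.7% in replicate 1 and 70.5% in replicate 2. In the second transcript table, made from the reads directly, the same 3 shares were 38.2% in replicate 1 and 45.4% in replicate 2 for Fos, 39.5% in replicate 1 and 55.9% in replicate 2 for Fosb, and 56.0% in replicate 1 and 69.3% in replicate 2 for Fosl2. The direction was the same in both tables, with a smaller gap for Fos in the second, and the Fosb share in replicate 1 rests on 8 counts. Over 8223 protein-coding genes with such transcripts the median share was 29.7% in replicate 1 and 32.1% in replicate 2, and 53.9% of them had a higher share in replicate 2, 23.6% by over 10 percentage points.

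For Fos the other type was almost all Fos-203, a processed transcript of 795 bases in 3 exons that includes 244 bases intronic in the main form. Fos-203 had 3.76 TPM in replicate 1, against 24.58 TPM in replicate 2, while the coding Fos-201 had 17.06 TPM in replicate 1, against 53.38 TPM in replicate 2. Their isoform percentages were 18.06% in replicate 1 and 31.40% in replicate 2 for Fos-203 and 81.94% in replicate 1 and 68.21% in replicate 2 for Fos-201. The coding transcript alone was therefore also lower in replicate 1. For Fosl2 the retained-intron form Fosl2-202, with 2839 intronic bases, had 0.49 TPM in replicate 1, against 3.15 TPM in replicate 2. The coding Fosl2-201 had 0.63 TPM in replicate 1, against 1.74 TPM in replicate 2. For Fosb the retained-intron form Fosb-204 had 0.02 TPM in replicate 1, against 1.37 TPM in replicate 2, from 2.28 counts in replicate 1 and 95.37 in replicate 2.

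Outside the Fos type, the share of other transcripts was 0% in replicate 1 and 11.6% in replicate 2 for Atf3, and 35.1% in replicate 1 and 31.8% in replicate 2 for Batf, where it was the retained-intron form Batf-202. Atf3 also differed in its coding forms, since Atf3-201 took 92.26% of its TPM in replicate 1 and 52.46% in replicate 2, and Atf3-203 took 7.74% in replicate 1 and 35.91% in replicate 2. The second table did not show that split, giving Atf3-203 0% in replicate 1 and 2.54% in replicate 2. It gave the non-coding Atf3-202 0% in replicate 1 and 25.8% in replicate 2, so the rise of other transcripts in replicate 2 was larger there for Atf3 than for Fos. Jun and Jund have 1 annotated transcript each, and Junb-201 held 99.70% of Junb in replicate 1 and 100% in replicate 2. Maff was assigned to different coding forms in the libraries, with Maff-203 at 0% in replicate 1 and 74.53% in replicate 2, from 0 counts in replicate 1 and 35 in replicate 2, which is too few to read.

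**Figure D5:**
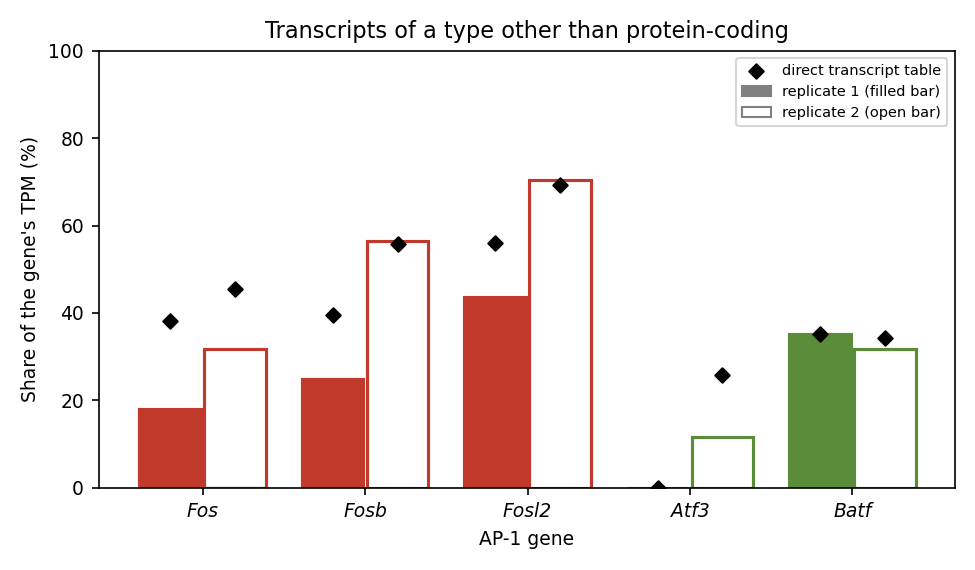
Share of each gene's TPM in transcripts of a type other than protein-coding, in percent, with filled bars for replicate 1, open bars for replicate 2 and diamonds for the second transcript table. The shares of Fos, Fosb, Fosl2 and Atf3 are higher in replicate 2 in both tables, and that of Batf is close in the libraries.

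Many AP-1 mRNAs are short-lived, and the pentamer ATTTA in a 3′ UTR is the core of the AU-rich elements that speed decay. Windows of 30 bases from 3 of the 3′ UTRs are shown, from the transcript sequences of the annotation, with the pentamer in capitals, to set the Fos type beside the Jun type. Each is the window with the most pentamers among those of its 3′ UTR that start at a pentamer, and each holds 2. Windows chosen likewise held 2 for Maff, 1 for Fosb, Fosl1, Junb, Jund and Atf3, and none for Batf.
Fos: ATTTATTTAttaagatggattctcagatat
Fosl2: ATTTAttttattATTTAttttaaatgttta
Jun: ATTTAtaatcataggaaagATTTAgtaatt

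Fos had 4 pentamers in 815 bases, or 4.91 per kb, above 92.9% of 9906 expressed protein-coding genes, whose median was 1.30 per kb. Junb had 4.12 per kb, Maff 3.29, Jun 3.24, Atf3 2.53, Jund 1.88 and Fosl2 1.72, the last from 8 in 4653 bases. Fosl1 had 1.57 per kb and Fosb 0.468, and Batf had none, whereas 67.1% of the expressed genes held at least 1. The order did not follow the classes, since Fos had the most per kb while Fosb had fewer than all but Batf.

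Other genes of the pathway were described from named lists. All 16 other leucine zipper genes reached a mean of 1 TPM, led by Maf with 99.85 TPM in replicate 1 and 152.85 in replicate 2. Nfe2l2, which encodes the stress regulator Nrf2, had 68.22 TPM in replicate 1, against 118.78 TPM in replicate 2. Nfe2l1 had 87.38 TPM in replicate 1, against 74.49 TPM in replicate 2. Of the list 2 genes were past 2-fold, both higher in replicate 1, where 4.51% of all genes were. Cebpb, a partner of AP-1 at inflammatory genes, had 53.59 TPM in replicate 1, against 16.03 TPM in replicate 2, a centred log2 difference of 1.97. Batf2 had 29.26 TPM in replicate 1, against 11.73 TPM in replicate 2, a difference of 1.54. The median difference of the list was 0.20, against 0.00 for all genes.

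Of 19 genes for MAP kinases and the factors they act on, 18 passed the filter and none was past 2-fold in either direction, where 7.29% of all genes were, with a median difference of -0.02. Map3k8, the kinase that links TLR4 to ERK, had the highest mean, with 51.64 TPM in replicate 1 and 55.36 in replicate 2. Mef2a followed with 27.77 TPM in replicate 1 and 60.26 in replicate 2, where it was above Map3k8, and Mapk14, the p38α kinase, with 28.39 TPM in replicate 1 and 36.69 in replicate 2.

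Of 9 regulators of AP-1 proteins, none was past 2-fold in either direction, where 7.29% of all genes were, with a median of -0.12. They were led by Dusp1, a MAP kinase phosphatase, with 54.96 TPM in replicate 1 and 73.49 in replicate 2. The ubiquitin ligase gene Cop1, whose protein targets Jun, had 41.47 TPM in replicate 1, against 48.16 TPM in replicate 2. The casein kinase gene Csnk2a1 had 24.37 TPM in replicate 1, against 40.45 TPM in replicate 2.

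Of 17 known AP-1 target genes, 13 passed the filter, and 3 were past 2-fold higher in replicate 1, where 4.51% of all genes were, and none lower, where 2.78% were. The cytokine gene Tnf had 325.92 TPM in replicate 1, against 153.74 TPM in replicate 2, a difference of 1.37. The chemokine gene Ccl2 had 144.31 TPM in replicate 1, against 70.57 TPM in replicate 2, a difference of 1.31. The collagenase gene Mmp13 had 3.10 TPM in replicate 1, against 1.39 TPM in replicate 2, a difference of 1.07. The list median was 0.25. The osteopontin gene Spp1 was also abundant, with 204.93 TPM in replicate 1 and 315.94 in replicate 2.

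Of 18 other early response genes, 13 passed the filter, 3 were past 2-fold higher in replicate 1, where 4.51% of all genes were, and none was lower, where 2.78% were, with a median of 0.39. Gadd45b, a stress sensor gene, had 141.1 TPM in replicate 1, against 69.42 TPM in replicate 2, a difference of 1.30. The zinc finger gene Egr1 had 27.46 TPM in replicate 1, against 15.59 TPM in replicate 2, a difference of 1.07. Ier5 had 46.65 TPM in replicate 1, against 27.86 TPM in replicate 2, a difference of 1.01. Of the abundant members, Zfp36, whose protein binds ATTTA elements, was at 225.85 TPM in replicate 1 and 210.55 in replicate 2, and Klf6 at 119.60 TPM in replicate 1 and 115.62 in replicate 2. The genes of that list nearest to Fos in their difference were Nr4a1 at -0.43, Btg2 at -0.23 and Dusp1 at -0.12, against -1.57 for Fos. They stood 1.14, 1.34 and 1.45 away from Fos on the log2 scale over these 2 libraries. Nr4a1 passed the filter through replicate 2 alone, and its distance rests on the pseudocount. Its 39 counts in replicate 1 and 76 in replicate 2 gave a log2 CPM difference of -1.27, beside -1.50 for Fos.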

How the data were processed

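Ribosomal RNA-depleted nuclear RNA was measured in 2 libraries of 1 group. The authors deposited, for each library, gene and transcript tables on mm10 with GENCODE M21, per the deposited text files. From the column names, the deposited expected counts were read as estimates of reads, and some are fractional. Deposited TPM values were read likewise as these counts divided by effective length and scaled. The deposited isoform percent was read as a transcript's share of its gene's TPM. A further deposited transcript table holds estimated counts and TPM made from reads directly. The aligner, quantifier and strand setting were not stated in the sources used here.

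Rows without a gene name and spike-ins, holding 0.581% of counts in replicate 1 and 0.434% in replicate 2, stayed out of totals and CPM. The symbol Rfwd2 was matched as Cop1 through RefSeq synonyms. A chi-square of rounded counts per degree of freedom was 91.3 over 14347 genes, so the libraries are not a single library deposited again. Differences used a pseudocount of 1 TPM, a mean of 1 TPM or more and centring on the median gene. A call means past 2-fold, without a p-value, since 1 library stood on each side. The calling step was also run on simulated counts that held counting error only, so that run does not test it at the larger spread between these libraries. The text names all members and, per list, the 3 most abundant genes, up to 3 past 2-fold, and the 3 early genes nearest to Fos. Members and lists were chosen with earlier results of these data known. Promoters came from RefSeq, and 9 of 10 members matched.

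Levels are the mean and SD of the libraries, and intervals are exact Poisson or, for ratios of counts, exact binomial. Alternatives were pseudocounts of 0.1 and 5, no filter, at least 10 counts in each library, no centring, TMM scaling from edgeR 4.0.16, median-of-ratios factors as in DESeq2 1.42.0 (both in R 4.3.3 on rounded counts), the other transcript table, TPM without mitochondrial genes and genes with an effective length under 200 bases in both libraries, counts not divided by length, and each library alone. Coding transcripts alone, centred CPM, the other table without centring and isoform shares from the other table were chosen after seeing the data. Other steps used Python 3.11.15 with matplotlib 3.10.9, scipy 1.17.1, numpy 2.4.6 and pandas 2.3.3.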

Additional observations from a re-analysis of the deposited data

How the results depend on the processing

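No paired analysis was possible because there was 1 group. Directions turned in the other table without centring, chosen after seeing the data, to -0.45 for Jun, -0.56 for Junb, -0.81 for Jund, -0.44 for Batf and -1.19 for Atf3, with the median gene at -1.28 there, and for Maff in the gene table without centring, to -0.05. The Atf/Batf/Maf-type share of 20.0% became 21.0% with the other transcript table, 15.8% with counts not divided by length and 19.1% with coding transcripts alone, and the log2 ratio of that class over the Jun type became -2.07 with counts not divided by length. The 3 members past 2-fold higher in replicate 1 became 0 with a pseudocount of 5, no filter, no centring, the other table with or without centring, or coding transcripts alone, and 4 with a pseudocount of 0.1, TMM scaling, median-of-ratios factors, centred CPM or TPM without mitochondrial and short genes. Of all genes, 0.423% to 3.50% were past it higher over the settings with 0 members and 3.51% to 6.90% over those with 4. The 3 lower members became 1 with a pseudocount of 5, the centred other table or coding transcripts alone. In these settings 0.749%, 5.05% and 1.24% of all genes were past 2-fold lower. Fosb did not pass the filter in the other table, where 7 members did, or with coding transcripts alone, where 8 did. Taking each library alone, the Fos-type share ranged from 6.27% to 29.1%, the Jun-type share from 51.2% to 73.3% and the Atf/Batf/Maf-type share from 19.7% to 20.4%, and the log2 ratios to the Jun type ranged from -3.55 to -0.82 and from -1.85 to -1.38. TPM without mitochondrial and short genes raised the levels, with Fos at 161 TPM and Junb at 455 TPM, and the other table lowered most, with Jun at 18.2 TPM and Junb at 48.8 TPM. The share of Fos in transcripts that are not protein-coding was 41.8% on average in the other table, against 25.0%. Depth limited Fosb in replicate 1, Maff and Fosl1, which had few counts or none. The cause of these shifts was not tested.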
